A study of Mus musculus with 6 samples.

Results

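Advanced pluripotent stem cells (ASCs) were compared with primed epiblast stem cells (EpiSCs) at the level of CpG methylation, to ask where the genome of ASCs is less or more methylated than that of the primed state. These libraries made up 4 of the 6 whole-genome bisulfite libraries of the study, 2 per group, chosen by their labels. The other 2 were naive embryonic stem cells (ESCs), which the study cultured in 2i/LIF and which are quoted below only as a reference. Between ASCs and EpiSCs, 450410 of the 1231381 windows of 2 kb on chromosomes 1 to 19 were compared. So were 14256 of the 20698 promoters of protein-coding genes and 18154 of the 20073 gene bodies. Each of these regions held at least 40 CpG observations in every one of the 4 libraries. An observation is 1 read at 1 CpG, and the level of a region is the share of its observations that were methylated.

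Both groups were labelled as wild type and of the strain 129S2/SvPasCrl. The methods of the study describe the derivation of lines from 129/sv females mated with reporter males of mixed MF1, 129/sv and C57BL/6J background, and its text calls the profiled lines female, so the strain label may not cover the whole background. ASCs were obtained in culture from primed-like cells derived from blastocysts (AFSCs), which were moved to a medium called ABCL, made of N2B27 with Activin A, BMP4, the GSK3 inhibitor CHIR99021 and LIF. EpiSCs are lines that resemble the epiblast after implantation. The labels speak of biological replicates without naming separate lines, so the spread between replicates may be that of cultures of 1 line. The groups thus differed in medium and in cell state together, and their effects cannot be told apart.

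In mammals, methylation of CpG is copied by DNMT1 with UHRF1 after replication and laid down anew by DNMT3A and DNMT3B with their partner DNMT3L, while TET enzymes oxidise it. Naive pluripotent cells carry little methylation, and the genome is remethylated as the epiblast passes implantation. Promoters rich in CpG mostly stay free of methylation in all these states. Promoters of germline genes, and enhancers of naive pluripotency genes, are known to gain it.

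The methylation files hold no RNA levels, so the labelled states were checked at the promoters of marker genes. Of the naive markers, the promoters of Zfp42 (Rex1) and Tcl1 were lower in ASCs by 96.2 and 89.7 percentage points, whereas those of Klf4, Esrrb, Tfcp2l1 and Prdm14 were not called, with differences between -17.2 and 4.99 points. The promoters of Dppa3 and Fbxo15 had too few observations to be compared. Of the primed markers, the promoters of Fgf5, Otx2 and T read at most 6.6% in every library, and that of Pou3f1 differed by -13.6 points without a call. Naive markers were thus called lower in ASCs at 2 of 6 promoters, and primed markers gave no call in either direction. Other starts of these genes were not tested as promoters, and at Esrrb windows far from the tested start did differ (below).

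The sequences below show places of strong contrast, chosen by gene from the groups described further on, and for comparison the starts of Pou5f1 and Lin28b, where the groups lay close together. Promoter windows of 300 bases were taken from RefSeq (GRCm38.p6), on the strand of the gene and with CpG sites in capitals. The windows at Dnmt3l, Rps16 and Hlx were read from the plus strand of the same build. The window at Dnmt3l was chosen for its number of CpG sites within the tested promoter, and those at Rps16 and Hlx likewise within the gene body or distal region.

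Zfp42, promoter of the naive marker, chr8:43306960-43307259, minus strand: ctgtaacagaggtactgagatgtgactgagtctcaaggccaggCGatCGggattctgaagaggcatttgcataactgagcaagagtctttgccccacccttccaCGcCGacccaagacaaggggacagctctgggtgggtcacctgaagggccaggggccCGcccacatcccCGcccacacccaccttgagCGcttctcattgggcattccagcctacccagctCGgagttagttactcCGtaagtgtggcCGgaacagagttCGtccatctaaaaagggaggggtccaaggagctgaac
Dnmt3l, promoter of the DNMT3 partner, chr10:78048912-78049211: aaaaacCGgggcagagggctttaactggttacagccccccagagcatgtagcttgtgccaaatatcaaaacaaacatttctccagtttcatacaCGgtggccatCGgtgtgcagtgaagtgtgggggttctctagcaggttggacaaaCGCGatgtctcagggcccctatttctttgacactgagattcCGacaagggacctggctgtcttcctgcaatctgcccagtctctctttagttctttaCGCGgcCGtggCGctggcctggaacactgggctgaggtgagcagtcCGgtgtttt
Dmc1, promoter of the meiotic recombinase, chr15:79605060-79605359, minus strand: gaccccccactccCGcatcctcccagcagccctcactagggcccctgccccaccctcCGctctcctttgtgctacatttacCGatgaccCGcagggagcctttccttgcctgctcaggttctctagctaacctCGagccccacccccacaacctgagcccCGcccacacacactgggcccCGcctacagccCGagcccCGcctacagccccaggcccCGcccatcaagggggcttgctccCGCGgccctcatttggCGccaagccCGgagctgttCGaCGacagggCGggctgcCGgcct
Ddx4, promoter of the germ cell RNA helicase Vasa, chr13:112652261-112652560, minus strand: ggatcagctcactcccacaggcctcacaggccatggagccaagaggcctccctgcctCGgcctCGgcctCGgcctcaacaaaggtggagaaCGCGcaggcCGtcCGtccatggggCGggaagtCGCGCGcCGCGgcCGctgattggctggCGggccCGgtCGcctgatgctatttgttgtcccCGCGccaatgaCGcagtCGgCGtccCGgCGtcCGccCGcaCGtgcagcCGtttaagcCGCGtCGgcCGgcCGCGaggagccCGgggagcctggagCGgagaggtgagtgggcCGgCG
Pou5f1, promoter of OCT4, shared by both states, chr17:35505782-35506081, plus strand: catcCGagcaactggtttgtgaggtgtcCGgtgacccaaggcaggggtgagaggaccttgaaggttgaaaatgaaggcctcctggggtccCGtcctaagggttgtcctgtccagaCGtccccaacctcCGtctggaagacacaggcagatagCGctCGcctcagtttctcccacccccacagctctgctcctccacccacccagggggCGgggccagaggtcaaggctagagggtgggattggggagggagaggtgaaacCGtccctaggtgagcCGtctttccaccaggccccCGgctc
Lin28b, start of the gene, chr10:45470152-45470451, minus strand: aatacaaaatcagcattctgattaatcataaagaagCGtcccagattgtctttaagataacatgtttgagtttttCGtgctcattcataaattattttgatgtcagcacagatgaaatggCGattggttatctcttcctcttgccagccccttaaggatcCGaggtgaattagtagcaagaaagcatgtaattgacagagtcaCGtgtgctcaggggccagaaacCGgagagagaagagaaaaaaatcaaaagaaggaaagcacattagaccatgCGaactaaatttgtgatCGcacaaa
Rps16, gene body of a ribosomal protein gene, chr7:28352362-28352661: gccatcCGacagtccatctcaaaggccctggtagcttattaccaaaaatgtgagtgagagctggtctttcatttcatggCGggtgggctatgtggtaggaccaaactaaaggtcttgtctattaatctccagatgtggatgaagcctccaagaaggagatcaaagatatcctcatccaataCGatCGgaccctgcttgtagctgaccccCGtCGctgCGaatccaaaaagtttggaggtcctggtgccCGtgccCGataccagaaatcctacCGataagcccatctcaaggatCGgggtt
Hlx, distal region higher in ASCs, chr1:184717211-184717510: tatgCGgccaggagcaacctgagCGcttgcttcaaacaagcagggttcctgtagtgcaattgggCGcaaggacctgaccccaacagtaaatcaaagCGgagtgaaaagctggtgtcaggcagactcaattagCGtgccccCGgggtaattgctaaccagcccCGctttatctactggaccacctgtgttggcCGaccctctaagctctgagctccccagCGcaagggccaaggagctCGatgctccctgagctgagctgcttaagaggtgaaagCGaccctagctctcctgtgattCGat

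Within these windows the contrast was close to complete at the germline and naive promoters. The 11 CpG sites of the Zfp42 window read 0% in both ASC libraries against 95.6% and 96.4% in EpiSCs, over 19 to 45 observations. The 18 sites of the Dmc1 window read 0% in both ASC libraries, 91.0% in EpiSC replicate 1 and 84.6% in EpiSC replicate 2. At Ddx4, whose window holds 38 sites, the ASC libraries read 8.22% and 6.06% and the EpiSC libraries 100% and 100%. The groups did not overlap at any of these windows. The Pou5f1 window, by contrast, read 1.82%, 0%, 0% and 1.47% in ASC replicates 1 and 2 and EpiSC replicates 1 and 2. At Lin28b the start of the gene read 12.1%, 4.17%, 3.85% and 2.94% in the same order, so ASCs and EpiSCs lay close together there, although the whole promoter was higher in ASCs (below).

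The genome as a whole was examined first. The autosomal CpG observations were methylated to 59.9% and 60.3% in ASCs and to 81% and 80.2% in EpiSCs, at a mean coverage of 3.08 to 3.45 reads per CpG. Over the compared windows of 2 kb the median level was 68.9% and 69.0% in the ASC libraries against 92.1% in both EpiSC libraries. The median difference, ASC minus EpiSC, was -20.9 points, with quartiles of -29.6 and -14.5. The groups did not overlap, and the spread between replicates was 0.138 points in ASCs (SD, n = 2) and 0.0295 in EpiSCs (SD, n = 2). An exact permutation test over libraries gave p = 0.333 (two-sided), the smallest value that 2 against 2 libraries allow.

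**Figure D1:**
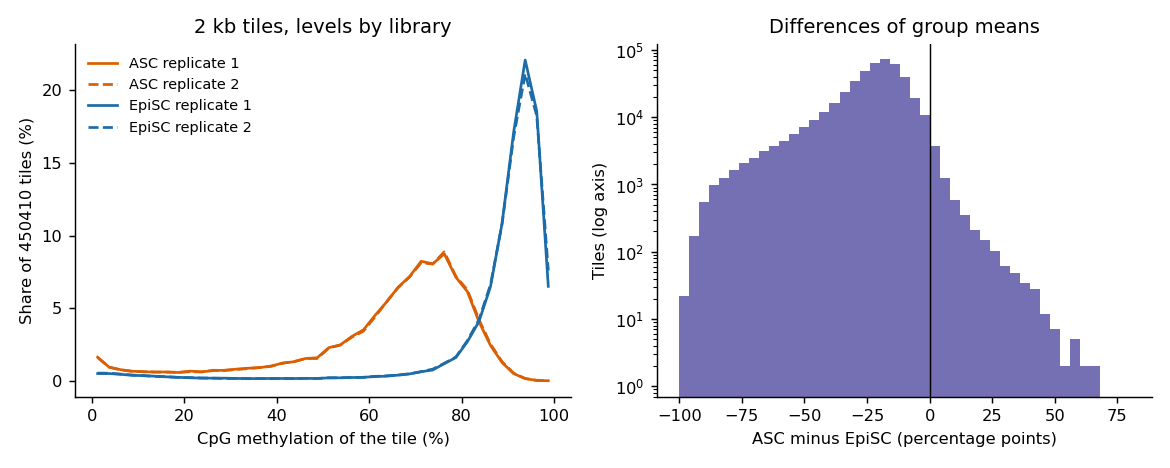
Left, share of the 450410 windows of 2 kb (percent of windows) at each level of CpG methylation (percent) in each of the 4 libraries. Right, number of windows (log axis) at each difference of the group means, ASC minus EpiSC, in percentage points. The replicates of each group lie on each other, EpiSC windows pile up above 80% and ASC windows spread around 69%, and the differences lean to the left of 0.

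Window by window, methylation was lower in ASCs at 240427 windows (53.4%) and higher at 451 (0.1%). Calls rest on an adjusted p under 0.05 in the limma-moderated quasi-binomial model together with a gap of 20 points or more between group means. Windows over 80% made up 12.1% of all windows in ASCs and 88.8% in EpiSCs, and windows under 20% made up 6.32% and 3.05%. A window over 80% in EpiSCs could not be called higher. At 2455 windows the mean of ASCs was under 10% and that of EpiSCs over 80%. The lower share depended on the scale. Measured against the median difference, 51124 windows were lower and 8672 higher, so that lower calls made up 85.5% of all calls in place of 99.8%. A window unmethylated in both groups can count as higher on this scale, and 7812 windows were under 10% in both.

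The deficit of ASCs was uneven along the genome. It was called at 46.5% of windows within 1 kb of a protein-coding start, at 65.1% from 1 to 5 kb, at 51.7% from 20 to 50 kb and at 36.3% beyond 200 kb. The deficit was thus called most often from 1 to 5 kb around starts, and least often far from genes. Distal windows made up for the most part of annotated repeats (80% or more of their bases) were lower in 29.9%, with a median difference of -15.1 points, against 48.1% and -19.6 points where repeats covered under 20%. Between these, the share was 56% at 20 to under 50% repeat and 50.8% at 50 to under 80%, so it did not fall steadily. Inside protein-coding genes 53.2% of distal windows were lower and outside them 49.9%. Chromosome medians ran from -19.3 points on chromosome 13 to -22.4 on chromosome 11, and every autosome was lower in ASCs. These levels are averages over many cells and both alleles, so a few unmethylated cells and a weak loss in all cells cannot be told apart.

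Next, promoters were compared, each taken as the 1000 bp upstream of a gene's start and the first 100 bp downstream. Of 14256 promoters, 3286 (23%) were lower in ASCs and 23 (0.161%) higher. The median promoter read 4.63% and 4.82% in the ASC libraries against 13.9% and 13% in the EpiSC libraries, and the median difference was -6.48 points. Both groups were under 10% at 5823 promoters, and 155 promoters were under 10% in ASCs and over 80% in EpiSCs. A promoter under 20% in EpiSCs could not be called lower, which keeps the counts of lists with little promoter methylation down. CpG content divided them. Among promoters with fewer than 20 CpG sites 59.2% were lower and the median difference was -24.0 points, whereas among those with 80 or more 2.85% were lower and the median was -0.777 points. The smallest called loss was 20.02 points, and 3270 promoters had an adjusted p under 0.05 with a smaller loss, the largest of which was 19.99.

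Promoter calls depended on having both EpiSC libraries in the moderated model. With a lone EpiSC library the spread comes from the ASC pair alone, the lone library is assumed to vary like it, and the prior degrees of freedom of the moderation were 1.01, against 3.50 with a lone ASC library. Without EpiSC replicate 1 or without replicate 2, the limma-moderated model called 0 promoters in either direction, with lowest adjusted p of 0.058 and 0.0532. At an unadjusted p under 0.05 it still gave 2926 and 3074 promoters lower by at least 20 points and 18 and 20 higher. On the same libraries Fisher's exact test on summed counts called 3355 and 3481 lower and 32 and 29 higher, and limma on M values called 1370 and 1570 lower and 5 and 6 higher. Promoters are thus given below mainly by their levels in each library.

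The promoters with the largest losses, among those whose libraries did not overlap, were nearly devoid of methylation in ASCs. The promoter of Dnmt3l (chr10:78048842-78049942), the catalytically inactive partner of the de novo methyltransferases, read 0% in both ASC libraries and 98.8% and 96.7% in EpiSCs, a difference of -97.7 points (adjusted p = 9.7e-05). Zfp42 (chr8:43306880-43307980), a zinc finger gene used as a marker of the naive state, read 0% in both ASC libraries and 94.6% and 97.8% in EpiSCs (adjusted p = 0.00017). Trim25, a ubiquitin ligase of antiviral signalling, read 0% in both ASC libraries against 95.4% and 98.6%. At Ndufa13, a subunit of respiratory complex I, ASCs read 0.698% and 0.47% and EpiSCs 98.2% and 98.0%. The spread between replicates was at most 2.24 points (SD, n = 2) at these 4.

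The other promoters in this group were of varied function. Eef1akmt1, a methyltransferase of an elongation factor, fell by 95.5 points, Trhde, a peptidase that degrades thyrotropin-releasing hormone, by 95.5, Dpp10, a potassium channel subunit, by 95.5, and Rbmxl2, an RNA-binding protein of spermatogenesis, by 95.4. The uncharacterised genes 2210016F16Rik and 4933428G20Rik differed by -97.78 and -97.03 points. At these 10 promoters ASCs read at most 2.06% in every library and ESCs at most 1.44%. The body of Tssk6, a testis kinase, lies next to Ndufa13 and within its promoter, so these results share reads.

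Among naive pluripotency genes, 6 of 16 promoters tested (37.5%, against 23% of all promoters) were lower in ASCs and 0 higher, so that the list lay near the background, with a median difference of -9.65 points against -6.48 over all promoters. Beside Zfp42, Dppa5a, an RNA-binding protein of pluripotent cells, read 0% in both ASC libraries and 96.4% and 90.2% in EpiSCs. Tcl1, a co-activator of AKT, read 5.56% and 2.60% in ASCs against 93.9% and 93.5% in EpiSCs. Tdh, threonine dehydrogenase, read 9.68% and 17.8% against 97.8% and 92.5%. These 4 promoters were methylated almost throughout in EpiSCs. Nanog read 5.97% and 4.41% in ASCs against an intermediate 53.4% and 45.3% in EpiSCs (adjusted p = 0.0015), and Pecam1 fell by 37.4 points. Klf4 and Tbx3, by contrast, read at most 1.36% in every library. The Esrrb promoter tested here, at 26.9% and 19.3% in ASCs against 20.2% and 16.0% in EpiSCs, overlapped between the groups. Its gene body and a distal region did differ (below). Other starts of Esrrb were not tested as promoters. Windows at -16.999 to -12.999 kb from the centre of that distal region read at most 0.725% in ASCs and over 90% in EpiSCs. The paper counts Esrrb among naive genes with a demethylated promoter in ASCs. The start tested here lay 55356 bp from the nearest window of the distal region, so the paper's statement may concern another start.

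Regulators shared by both pluripotent states seldom differed at promoters, and 8 of 11 tested were under 10% in both groups. Of the 11, 0 were lower, against 23% of all promoters, and 1, Lin28b, was higher, and the median difference was -0.00378 points. Pou5f1, which encodes OCT4, read 1.32% and 0% in ASCs against 0% and 0.855% in EpiSCs, and Sox2 read at most 1.22% in every library. At an adjusted p under 0.05 without a minimum difference, 3 of these 11 promoters were lower, where 6556 of all 14256 promoters were. The largest loss among the 3 was that of Foxd3, a forkhead factor, with -10.4 points. Among primed epiblast and gastrulation genes 3 of 22 promoters (13.6%, against 23% of all) were lower, namely Lefty2 with -75.2 points, Zic5 with -24.6 and Nodal with -22.7. Lefty2 and Nodal are an inhibitor and a ligand of the same branch of TGF-beta signalling. Hand1, a regulator of trophoblast and mesoderm, moved the other way, at 19.15% and 17.1% in ASCs against 2.21% and 2.55% in EpiSCs, but its 15.7 points fell short of a call. The median of the list was -0.0816 points.

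Germline genes showed the deepest loss of any list at promoters with over 20 members tested. Of the meiosis genes 23 of 32 promoters were lower, with a median of -47.5 points, and of the piRNA and germline defence genes 20 of 25, with a median of -48.9, where 23% of all promoters were lower. No member of either was higher. The lists had median levels of 93.6% and 93.9% in EpiSCs, against 13.7% over all promoters. Their shares and medians are thus not comparable with those of all promoters. Dmc1, which pairs homologous chromosomes in meiosis, read 0.725% and 2.46% in ASCs against 93.0% and 91.8% in EpiSCs (adjusted p = 8.5e-05). Rec8, the meiotic cohesin, read 10.3% and 1.61% against 93.3% and 94.5%, and Meioc, a regulator of meiotic prophase, 13.2% and 14.9% against 95.5% and 98.0%. Smc1b, another meiotic cohesin, fell by 80.2 points. Msh5, Zcwpw1 and Mei4 were exceptions, with differences between -1.57 and -0.431 points.

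Members of the piRNA and germline defence list, of which the piRNA genes silence transposons in germ cells, behaved alike but with more residual methylation in ASCs. Boll, an RNA-binding protein of the DAZ family, read 0.615% and 6.04% in ASCs against 95.7% and 97.1% in EpiSCs. At Ddx4, the whole promoter read 23.8% and 15.1% against 97.8% and 100%. Piwil2, a PIWI protein, read 13.7% and 15.4% against 94.3% and 91.4%. Mael read 25.8% and 24.6% against 97.1% and 99.4%, and Dazl, at 74.9% and 66.3% against 93.7% and 95.9%, stayed mostly methylated in ASCs. Tdrd5, Mybl1 and Tdrd7 read at most 16.1% in every library, and the largest difference among these 3 was 1.74 points.

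**Figure D2:**
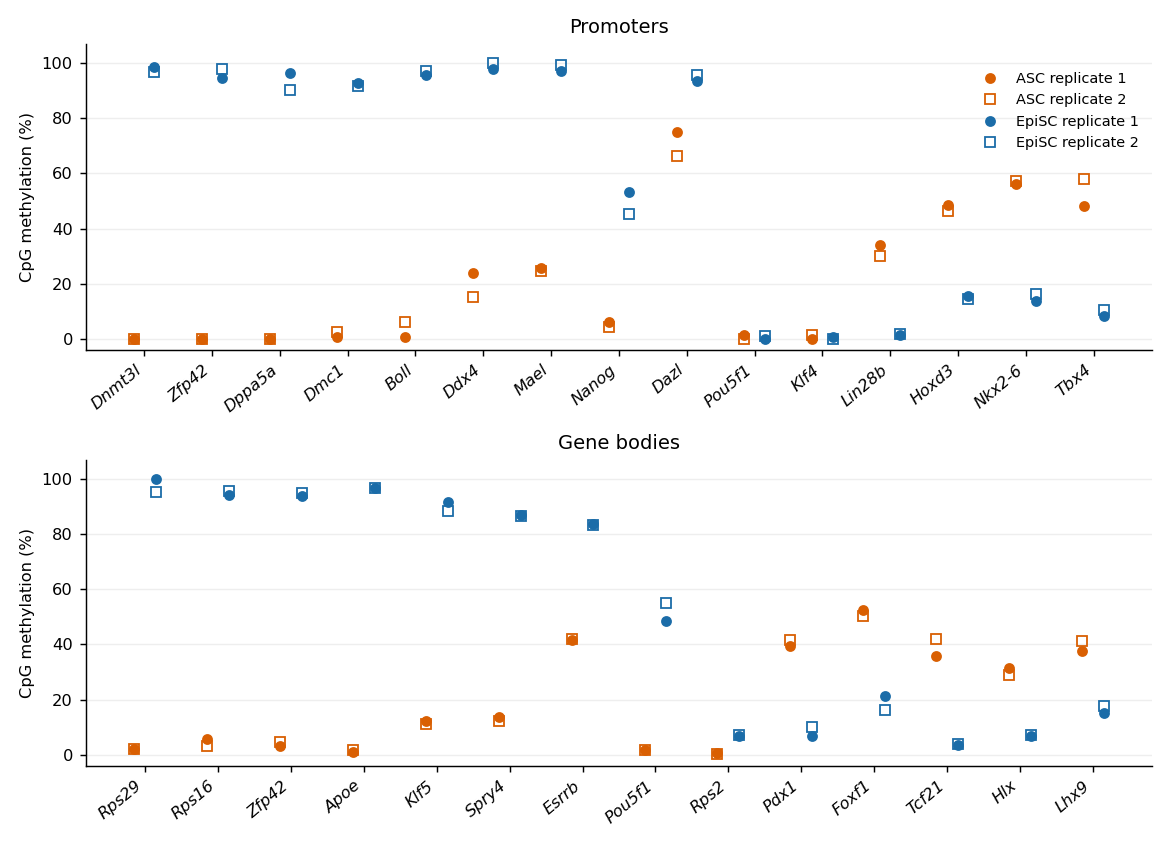
CpG methylation (percent) in each library at promoters (top) and gene bodies (bottom) of named genes, with filled circles for replicate 1 and open squares for replicate 2, ASCs in orange and EpiSCs in blue. From Dnmt3l to Mael the promoters sit under 30% in ASCs and over 90% in EpiSCs, Pou5f1 and Klf4 sit near 0% in both, and Lin28b, Hoxd3, Nkx2-6 and Tbx4 are higher in ASCs.

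The palindromic E-box CACGTG was counted in the 300 bases around the start given by RefSeq, which matched 10343 of the tested promoters. It occurred in 10.4% of all of these windows, in 10.2% of the 2199 lower in ASCs, in 4 of the 15 higher in ASCs (26.7%) and in 10.4% of the 8129 not called. Among meiosis and piRNA promoters it occurred in 15 of 35 lower in ASCs (42.9%) and in 2 of 10 not called. Among the 112 promoters under 10% in ASCs and over 80% in EpiSCs it occurred in 12.5%, near the share of all promoters. The Ddx4 and Lin28b windows printed above hold 1 match each, and those of Zfp42 and Dmc1 hold 0.

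Genes of the methylation machinery itself were lower at 6 of 17 promoters (35.3%, against 23% of all promoters), with a median of -9.75 points against -6.48, so that the list lay near the background. After Dnmt3l, the promoter of Uhrf1, the partner that brings DNMT1 to replicating DNA, read 8.60% and 8.85% in ASCs against 33.9% and 43.8% in EpiSCs. Zfp57, which protects imprints, read 4.29% and 10.4% against 32.8% and 39.0%. Uhrf2, Hells and Mbd1 fell by 22.8, 22.1 and 22.0 points. The maintenance enzyme Dnmt1 differed by -13.7 points without a call, and Dnmt3a and Tet2 read at most 6.41% in every library. Of the 17 promoters, 8 were under 10% in both groups.

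Imprinted genes were lower at 12 of 26 promoters (46.2%, against 23% of all promoters), with a median of -18.7 points against -6.48. Their median level in EpiSCs was 46.5%, against 13.7% over all promoters, so these values are not comparable with those of all promoters. Nap1l5 read 26.3% and 31.0% in ASCs against 97.3% and 98.9% in EpiSCs. Gnas read 2.91% and 2.42% against 67.8% and 69.5%, and Cdkn1c, a growth inhibitor expressed from the maternal allele, 3.33% and 4.55% against 54.5% and 58.6%. At Igf2r, a receptor that clears IGF2, ASCs read 7.58% and 17.5% and EpiSCs 59.2% and 66.7%. Other members did not follow. Mest read 57.4% and 56.9% in ASCs against 55.9% and 45.4% in EpiSCs, Peg3 32.2% and 34.5% against 48.6% and 30.1%, and Dlk1 and Igf2 differed by 9.41 and 4.07 points without a call, their libraries overlapping at Peg3 and Dlk1. The reads do not separate the parental alleles.

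Regulators of the first lineages were lower at 12.5% and 13.3% of promoters, against 23% of all promoters, which in lists of this size is a gap of few genes. Trophoblast regulators were lower at 2 of 16, Plet1 by 69.6 points and Elf5, a trophoblast gatekeeper, from 97.7% and 95.2% in EpiSCs to 71.2% and 72.8% in ASCs. Cdx2, Gata3, Tfap2c and Eomes read at most 6.13% in every library. Primitive endoderm regulators were lower at 2 of 15, Amn by 75.7 points and Lama1 by 27.3. In a list of signalling genes, mostly of the Wnt, BMP and LIF pathways with some Activin and FGF genes, 3 of 32 promoters were lower, and their median was -1.06 points. Il6st, the signalling subunit of the LIF receptor, read 50.9% and 36.9% in ASCs against 94.2% and 94.3% in EpiSCs. Id3, a direct target of BMP signalling, read 21% and 17.1% against 68.3% and 68.9%, and Fgf2 fell by 22.8 points. Of the cell-type families, neurotransmitter receptors were lower at 21 of 49 promoters and keratins at 22 of 44, against 23% of all promoters. Their median levels in EpiSCs were 31.0% and 89.5%, against 13.7% over all promoters, so these shares are not comparable with 23%. Among promoters with fewer than 20 CpG sites the share was 59.2%. Proteasome genes were lower at 4 of 39 and histone genes at 4 of 52, with median levels in EpiSCs of 13.1% and 2.99%, from which most could not be called lower.

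The 23 promoters that were higher in ASCs included 1 of 33 tested Hox genes and 3 of 132 other homeobox, Fox, Sox and T-box genes, where 0.161% of all promoters were higher. Tbx4, a T-box factor of the hindlimb, read 48.2% and 57.9% in ASCs against 8.24% and 10.4% in EpiSCs (adjusted p = 0.00081). Nkx2-6, a homeobox gene of pharynx and heart, read 56.3% and 57.3% against 13.7% and 16.1%. Tcf21, a bHLH factor of mesenchyme, read 44.9% and 54.5% against 6.58% and 11.7%. ESCs read between 7.89% and 20.5% at these 3, nearer to EpiSCs than to ASCs. Lhx9, a LIM homeobox gene, read 49.3% and 31.7% in ASCs, 2% and 2.33% in EpiSCs, and 24.1% and 48.8% in ESCs, so that ASCs did not stand apart from ESCs there. Bhlhe22 and Hoxd3 were higher by 34.2 and 32.5 points.

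Of the other promoters in this group, Cck, which encodes cholecystokinin, read 57.5% and 60.9% in ASCs against 23.3% and 30.6% in EpiSCs. Lin28b, an RNA-binding protein that blocks let-7, read 33.9% and 30.2% against 1.41% and 1.56%. Miip, at 33.8% and 59.0% against 3.89% and 3.47%, and Nmur2, at 38.8% and 70.3% against 13.8% and 14.9%, varied strongly between the ASC replicates. The promoter of Miip overlaps that of Fv1, which was higher too, so they share reads. The other 12 were Abcc9, Pnpt1, Gnb3, Pdx1, Selenoi, Kcnip3, Lrrc4b, Gm14137, Ank3, Tspear, Rims3 and Rax, with differences from 20.03 to 27.8 points. In a narrower promoter that reached 500 bp to either side, the differences were 19.202 points at Tbx4, 13.5 at Nmur2, 7.94 at Bhlhe22, 9.66 at Hoxd3 and 10.6 at Lin28b, and none of these was called. Nmur2 was not called without ASC replicate 2 either, with a difference of 24.5 points (adjusted p = 0.074).

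Gene bodies, taken from 1000 bp after the start to the end of the gene, were then compared. Of 18154 bodies, 13673 (75.3%) were lower in ASCs and 8 (0.0441%) higher. Median levels were 62.6% and 63.0% in the ASC libraries and 90.7% in both EpiSC libraries, and the median difference was -25.2 points. Measured against that median, 1583 bodies were lower and 381 higher, so that lower calls made up 80.6% of all calls in place of 99.9%. Here too a body unmethylated in both groups can count as higher, and 132 bodies were under 10% in both. Calls of promoter and body were set side by side. Among 13780 genes with both compared, both were lower in 2471, the promoter alone in 622, the body alone in 8401 and neither in 2286. Of 5677 genes whose promoter was under 10% in both groups, 4553 had a lower body, and in 389 of these the body differed by at least 50 points. Since 75.3% of all bodies were lower, the count of 4553 is not read as a trait of such genes. Across genes the differences of promoter and body correlated with r = 0.0844 and rho = 0.067, which is a description, since genes are not independent and share libraries.

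The bodies with the largest losses belonged to short genes. Rbmxl2 read 0.365% and 0% in ASCs against 98.6% and 100% in EpiSCs (adjusted p = 8.1e-13). Tssk6 read 0% in both ASC libraries against 97.9% and 96.99%. Apoe, the apolipoprotein, read 0.957% and 1.78% against 96.8% and 96.7% (adjusted p = 1.2e-16). Each was almost free of methylation in ASCs and almost full in EpiSCs, and ESCs read at most 1.14% there. Fkbpl, C2cd4d, Rps29, Commd5, Mocs3, Gltpd2 and Mrps12 fell by 92.7 to 95.8 points.

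Ribosomal protein genes had the largest median loss of the 29 lists, with a median difference of -79.5 points against -25.2 over all bodies. Of their bodies 62 of 64 were lower (96.9%, against 75.3% of all bodies). Rps16 read 5.69% and 3.09% in ASCs against 94.4% and 95.6% in EpiSCs, and the 300 bases printed above read 4.76% and 0% against 100% and 100%. Rps13 read 1.32% and 2.74% against 95.2% and 93.6%, and Rpl13a 1.2% and 0.437% against 92.6% and 91.6%. Rps2 was an exception, at 0.519% and 0.21% in ASCs against 6.63% and 7.23% in EpiSCs, and Rpl39l another, at 76.5% and 90.1% against 94.0% and 96.5%. Ribosomal protein genes are short, and length moved with the result, so lengths were set side by side. Of those under 5000 bp, 45 of 47 were lower, with a median of -82.9 points, against 1351 of 1924 other genes of that length with a median of -29.7. Of the 17 longer ones all were lower, against 12260 of 16166 other long genes (75.8%), with a median of -65.7 against -24.9. Processed copies of these genes elsewhere in the genome can share reads with their exons, and the part of such copies was not tested. At Rps29 the loss shrank to -8.03 points when the start was included, and was no longer called.

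The profile around gene starts placed this difference. In the first 500 bp ribosomal protein genes read 1.05% in ASCs and 2.63% in EpiSCs. From 1000 to 1500 bp they read 2.47% against 66.4%, and from 2000 to 2500 bp 5.12% against 88.6%. The stretch with little methylation after the start was thus longer in ASCs than in EpiSCs. Before the start the groups differed too, at 10.4% in ASCs and 45.0% in EpiSCs from -1000 to -500 bp. Over all genes the 3 intervals after the start read 7.41% against 12.4%, 27.7% against 53.8% and 49.0% against 78.7%. The interval before the start read 22.5% against 39.6% over all genes. Meiosis and piRNA genes differed at the start itself, at 24.2% in ASCs and 71.5% in EpiSCs in the first 500 bp. Hox, homeobox, Fox, Sox and T-box genes read 3.72% in ASCs and 8.60% in EpiSCs in the first 500 bp, 21.6% and 21.3% from 2000 to 2500 bp, and 38.9% and 47.2% from 9500 to 10000 bp.

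**Figure D3:**
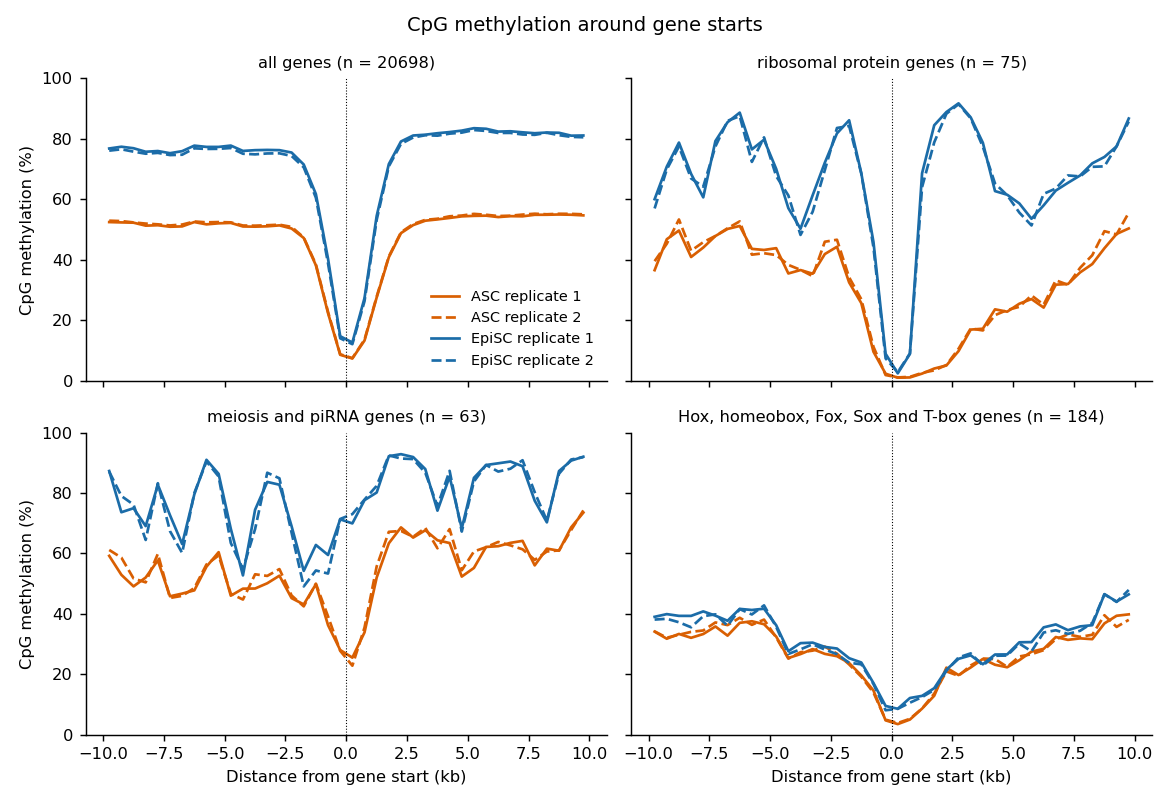
Mean CpG methylation (percent) in intervals of 500 bp against distance from the gene start (kb), in each of the 4 libraries, for all 20698 genes and for 3 gene groups. The ASC and EpiSC curves of ribosomal protein genes lie close at the start and part before it and beyond 1 kb after it. They part at the start in germline genes, and least in Hox, homeobox, Fox, Sox and T-box genes.

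Against 75.3% of all bodies, respiratory chain genes were lower at 82 of 87 bodies, with a median of -34.7 points, led by Uqcr10, a complex III subunit, with -87.8. Proteasome genes were lower at 40 of 42, with a median of -31.7, led by Psmb4 with -86.7, while histone cluster genes were lower at 4 of 7, with a median of -24.1. Sensory receptors had smaller losses than the median body, with 286 of 495 olfactory receptors lower and a median of -21.4 points, and 121 of 186 vomeronasal receptors with -23.1. Their families share near-identical members, and only those with enough observations are counted.

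Pluripotency genes had larger median losses in their bodies than all genes together. Naive genes were lower at 17 of 21 bodies (81%), near the 75.3% of all bodies, with a median of -41.8 points against -25.2, and shared regulators at 9 of 11 (81.8%), with a median of -44.5. Zfp42 read 3.27% and 4.54% in ASCs against 93.8% and 95.1% in EpiSCs. Klf5, a Kruppel-like factor, read 12.1% and 11.1% against 91.8% and 88.4%, and Dppa3 (Stella) 16.2% and 20.1% against 95.5% and 96.5%. Esrrb, a nuclear receptor of the naive network, read 41.5% and 41.9% against 83.8% and 83.2%. Pou5f1, with an unmethylated promoter in both groups, read 1.78% and 1.82% in its body in ASCs and 48.4% and 54.9% in EpiSCs, and Utf1 0% in both ASC libraries against 51.2% and 56.2%. None of these overlapped between the groups. Klf4, Gbx2, Tbx3 and Nr5a2 were not called, with differences from -19.2 to -6.50 points.

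Primed epiblast and gastrulation genes were lower at 11 of 24 bodies, with a median of -15.7 points. Their median level in EpiSCs was 46.6% against 90.7% over all bodies. A body under 20% in EpiSCs could not be called lower, so the share and median of this list are not comparable with those of all bodies. The largest losses were at Lefty1 and Lefty2, inhibitors of Nodal, with -77.5 and -63.1 points. Pou3f1, Otx2, Zic2 and Zic5 differed by at most 0.871 points in either direction. The signalling list of Wnt, BMP, LIF and FGF genes was lower at 27 of 33, with a median of -25.6, close to that of all bodies. Spry4, an inhibitor of FGF signalling, read 13.8% and 12.2% in ASCs against 87.0% and 86.5% in EpiSCs, and Tdgf1 (Cripto), a Nodal co-receptor, 7.99% and 10.05% against 66.8% and 78.8%. Of the methylation machinery 16 of 19 bodies (84.2%) were lower, near the 75.3% of all bodies, among them Mbd3 with -64.7 points and Tet1 with -46.6. Trophoblast regulators, with a median level of 45.7% in EpiSCs, were lower at 8 of 18 (44.4%). Primitive endoderm regulators, with a median level of 85.5% in EpiSCs, were lower at 6 of 17 (35.3%). Imprinted genes were lower at 18 of 28 (64.3%) with a median of -23.1.

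Clustered protocadherins, which give neurons their surface identity, were lower at 55 of 56 bodies (98.2%, against 75.3% of all bodies), with a median of -57.7 points against -25.2. Pcdhb21 read 8.14% and 9.77% in ASCs against 94.6% and 94.0% in EpiSCs, and Pcdhac1 was not called, with -15.7 points. Members of the alpha and gamma clusters overlap along their shared 3′ exons, so their counts are not independent. At their promoters 5 of 9 were lower (55.6%, against 23% of all promoters), with a median of -67.3 points against -6.48. Among those lower were Pcdhgb4, at 10.8% and 14.7% against 90.3% and 92.3%, and Pcdhgb5, at 3.70% and 2.27% against 77.9% and 80.8%. The median level of the protocadherin promoters in EpiSCs was 79.3%, against 13.7% over all promoters. Their share and median are thus not comparable with those of all promoters.

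**Figure D4:**
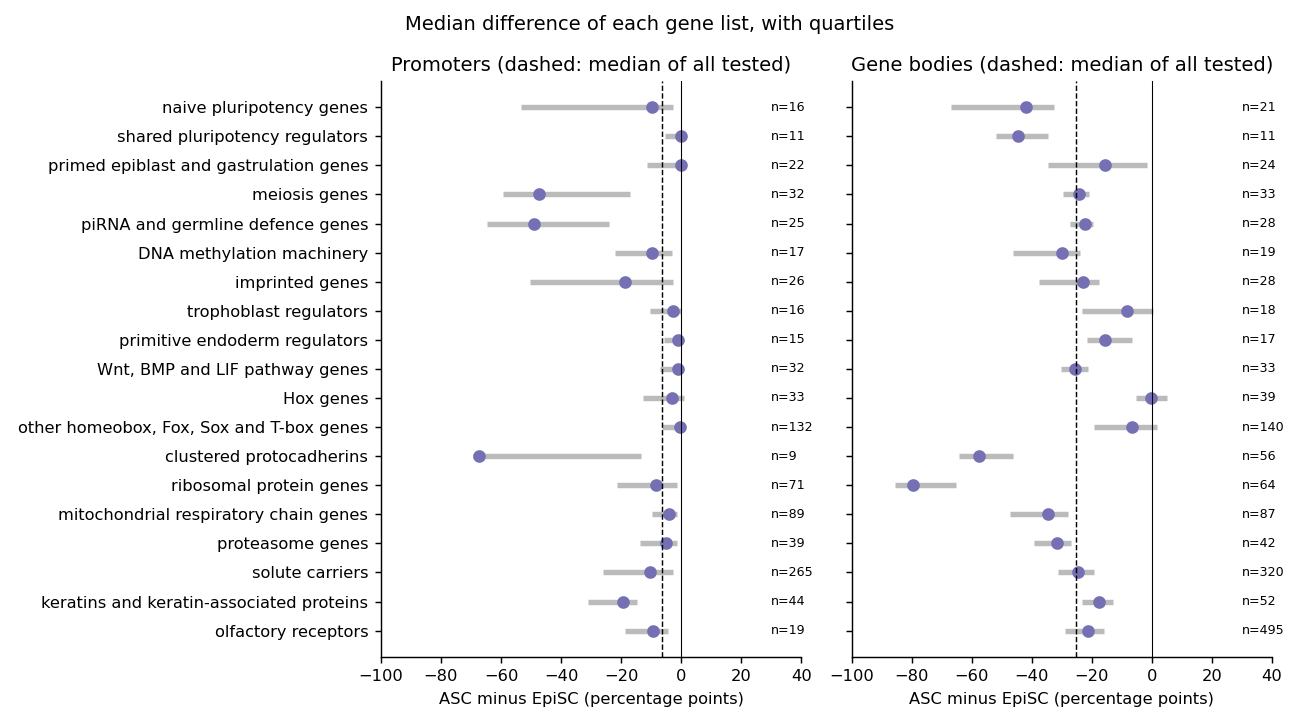
Median difference, ASC minus EpiSC (percentage points), over the tested members of 19 gene lists, with the quartiles as grey bars and the number tested on the right, for promoters (left) and gene bodies (right). The dashed lines mark the medians of all promoters (-6.48) and all bodies (-25.2). Germline lists and protocadherins lie furthest left at promoters, ribosomal protein genes at bodies, and Hox genes lie near 0 at bodies.

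Many genes of developmental transcription factors lost little in their bodies, where 75.3% of all bodies were lower. Hox genes, which set position along the body axis, were lower at 3 of 39 bodies, with a median of -0.425 points, and the list of other homeobox, Fox, Sox and T-box genes, which includes Gata factors, at 32 of 140, with 3 higher and a median of -6.53. Hoxb1, Hoxd1 and Hoxb5 fell by 36.5, 34.8 and 32.1 points, while Hoxa5 read 22.9% and 20.2% in ASCs against 7.69% and 6.67% in EpiSCs without reaching 20 points. The median level of Hox bodies was 15.6% in EpiSCs against 90.7% over all bodies, so that most of them could not lose 20 points. That of the other list was 33.3% in EpiSCs. The differences of both lists are thus not comparable with those of all bodies. Sox18, an endothelial factor, went the other way, at 5.67% and 7.87% in ASCs against 79.2% and 79.9% in EpiSCs. At promoters, 4 of 33 Hox genes and 15 of 132 of the others were lower (12.1% and 11.4%, against 23% of all promoters), led by Sox15, a relative of Sox2, with -92.3 points. Neighbouring Hox genes lie close together, so their bodies and promoters share windows.

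The 8 bodies that were higher in ASCs were those of Tcf21, Foxf1, Pdx1, Hlx, Lhx9, Emx2, Mnx1 and the uncharacterised gene 9230102O04Rik, of which 3 belong to the list of other homeobox, Fox, Sox and T-box genes. Tcf21 read 35.7% and 41.8% in ASCs against 3.57% and 4% in EpiSCs (adjusted p = 5.1e-06). Foxf1, a forkhead factor of lateral mesoderm, read 52.5% and 50.5% against 21.2% and 16.1%. Pdx1, the pancreatic homeobox factor, read 39.4% and 41.6% against 6.68% and 10.2% (adjusted p = 9.3e-11). ESCs read between 8.66% and 27.2% at the 8 bodies. Hlx, Lhx9, Emx2 and Mnx1 were higher by 20.2 to 23.1 points. When the first 1000 bp were included, the differences of Foxf1 (11.1), 9230102O04Rik (18.6), Hlx (15.9), Emx2 (18.6) and Mnx1 (10.4) were no longer called. Mnx1 was lost as well without ASC replicate 1 (18.7) or without EpiSC replicate 2 (19.23).

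Finally, sequence away from promoters was compared, in 337079 windows whose centre lay more than 5000 bp from every protein-coding start. Of these, 173440 (51.5%) were lower in ASCs and 270 (0.0801%) higher. To find discrete regions within so broad a loss, windows lower by at least 50 points were taken, which were 18315 (5.43%). Merged with neighbours, they gave 12840 regions over 36.63 Mb, of which 9715 were a lone window and 246 held 5 or more. The levels of a region, here and below, cover only its windows that passed the cut, not a window left between them. The median level of these regions was 29.6% in ASCs, 92.2% in EpiSCs and 7.67% in ESCs. Windows of these regions held 27 CpG sites at the median, where distal windows in general held 22, 51.9% lay in a protein-coding gene against 47.4%, and the median distance to a start was 18349 bp against 30718. Of these windows, 5 were covered at over 3 times the median depth, against 103 of all distal windows. CpG sites listed in both ASC libraries and in neither EpiSC library numbered 2.87 per 1000 CpG in these windows and 3.09 in all distal windows.

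The longest region, of 19 windows on chr8:106610001-106648000, lay in an intron of Cdh1, which encodes E-cadherin, an adhesion molecule of epithelia and pluripotent cells. It read 17.5% and 17.4% in ASCs against 89.4% and 89.5% in EpiSCs. A region of 24 kb over Esrrb, on chr12:86476001-86500000, read 9.16% and 8.62% against 91.6% and 91.1%. ESCs read 1.89% and 1.40% over this region, so it was low in both ASCs and ESCs. At Trim71, itself a target of let-7, a region on chr9:114522001-114560000 read 14.0% and 15.3% against 87.1% and 87.8% over the 17 windows that passed the cut. Next to Cdkn1a, the cell cycle inhibitor p21, a region on chr17:29054001-29084000 read 13.6% and 16.1% against 88.0% and 85.6%, and spanned the lincRNA Trp53cor1. Others of 24 kb or more lay at Usp7, Tns3, Zfp532, Ror2, near Il17b over the lincRNA Bvht, and near Klhdc8a.

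The regions with the largest mean differences were of another kind. Of 10, 6 lay on chromosome 12 between 18852001 and 23428000, at exons annotated as pseudogenes, lincRNAs or a processed transcript. Whether reads of similar copies were placed correctly there was not tested. The largest, on chr12:19386001-19390000 at an exon of Gm5784, read 0.5% and 0.654% in ASCs against 98.1% and 99.03% in EpiSCs. The others lay in an intron of Cdk7, at exons of Zfp467 and Dact3, and in an intron of Fnbp1. The window at Cdk7, a kinase of the general transcription machinery, on chr13:100724001-100726000, read 1.39% and 1.18% against 98.7% and 98.0%.

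Most genes of the pluripotency lists lay near such regions. A region lower by at least 50 points stood within 50 kb of the start of 9511 of 20698 genes (46%). The share was 18 of 22 for naive genes (81.8%), 9 of 12 for shared regulators (75%), 28 of 34 for the list of Wnt, BMP, LIF and FGF genes (82.4%), 15 of 19 for trophoblast regulators (78.9%) and 54 of 75 for ribosomal protein genes (72%). It was 13 of 24 for primed genes (54.2%), 4 of 39 for Hox genes (10.3%) and 83 of 1126 for olfactory receptors (7.37%). These shares are descriptions, since genes close to each other share regions and gene density differs among the lists. Klf2 had 5 regions within that distance, Klf5 and Dppa3 had 4, and Nanog, Esrrb and Pou5f1 had 3 each, while Sox2 had 0.

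Distal regions higher in ASCs were few and small. The 270 windows gave 231 regions, of which 199 were a lone window, with a median level of 59.2% in ASCs, 28.5% in EpiSCs and 16.4% in ESCs. The median window among them held 28.5 CpG sites, and 31.5% lay in a protein-coding gene. The nearest start was that of a Hox, homeobox, Fox, Sox or T-box gene at 40 of 231 (17.3%), against 175 of 12840 regions lower in ASCs (1.36%) and 2.35% of all distal windows. A region of this kind lay within 50 kb of 222 genes (1.07%). It did so for 17 of 39 Hox genes (43.6%), which share a few regions in their clusters, and for 28 of 145 other factors (19.3%), among them Pax3, Pax6, Dlx5, Sox2 and Foxa2. Primed genes had 4 of 24, at Fgf8, Foxa2, Fgf5 and Evx1, and naive genes 0 of 22. A window over 80% in EpiSCs could not be called higher, and 88.8% of all 2 kb windows were over 80%. Median body levels in EpiSCs were 15.6% in Hox genes and 33.3% in the other factors, against 90.7% over all bodies. The shares near these genes are thus not comparable with those of all windows or all genes.

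Among the largest, a window near Hlx on chr1:184716001-184718000, in an intron of the lincRNA 4930488B22Rik, read 75% and 75.8% in ASCs against 13.5% and 11.5% in EpiSCs (adjusted p = 6.7e-26). The 300 bases of it printed above read 72.7% and 85.3% against 6.90% and 5%. A region in an intron of Smad1, a mediator of BMP signals, on chr8:79382001-79386000, read 59.5% and 64.8% against 12.2% and 10.9%. Windows near Mup8 and Mup11 were higher by 64.5 and 59.2 points, and one near Cyp2b13 by 49.7, but these lie in families of near-identical genes. The others lay nearest to Pcmtd1, Fgfr1, Sim2, Snx16 and Lrig3. ESCs read from 12.2% to 29.0% at these 10 regions, below ASCs in every library.

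The longest of them held 2 to 4 windows. A stretch of 4 windows near Nkx3-2, a homeobox gene of the skeleton and gut, on chr5:41752001-41760000, read 46.6% and 47.5% in ASCs against 11.7% and 14.6% in EpiSCs. Next to Tcf21, whose promoter and body were higher as well, a region on chr10:22842001-22846000 read 46.6% and 44.7% against 9.09% and 7.24%. Others of 3 windows were higher by 22.6 to 36.2 points. They lay at an exon of Pou3f3, nearest to Hoxb13, Foxf1 and Hoxa13, and at an exon of Camkmt with the nearest start, that of Six3, 150608 bp away. Regions of 2 windows with larger differences lay at the pseudogene Cyp2j14-ps, with 44.1 points, and between genes 318752 bp from AW209491, with 44.0 points.

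**Figure D5:**
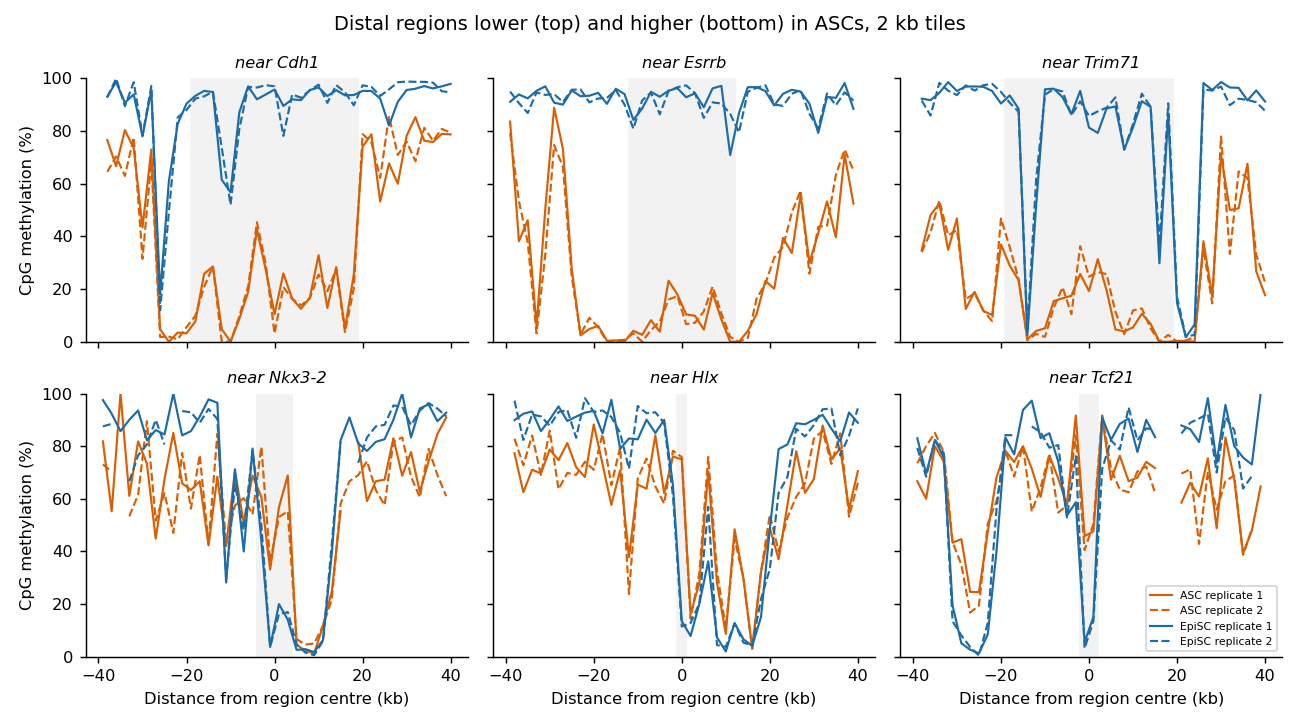
CpG methylation (percent) of 2 kb windows against distance from the centre of the region (kb) in each library, at 3 long regions lower in ASCs (top) and 3 regions higher in ASCs (bottom), with the called region shaded. Over the regions at Cdh1, Esrrb and Trim71 the ASC curves stay mostly under 40% and the EpiSC curves mostly over 80%, with narrow dips, and in the shaded parts at Nkx3-2, Hlx and Tcf21 EpiSCs dip to levels that ASCs do not reach.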

How the data were processed

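Post-bisulfite adaptor tagging (PBAT) libraries were made by the authors, who trimmed reads with Trim Galore and aligned them with Bismark 0.16.3 (submitters' processing notes; build GRCm38/mm10), removed PCR duplicates and called CpG sites with MethPipe, with the MethPipe version not given in the sources used here. Each deposited file gives, for each CpG with both strands merged, a methylated fraction and a count of covering reads. The fraction times the deposited count was whole to within 0.000115, and gave methylated and unmethylated reads. Bisulfite conversion was not analysed here, and incomplete conversion would raise low levels most.

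Reads were summed over windows of 2000 bp, promoters and gene bodies (GENCODE M21, 20698 protein-coding genes), which were kept with at least 40 observations in each of the 4 libraries (63803799 to 71309954 CpG reads). Each region was fitted with a quasi-binomial logistic model whose dispersion was moderated with limma 3.58.1 (R 4.3.3), followed by an F test and Benjamini-Hochberg adjustment over all regions of its kind. A region was called at an adjusted p under 0.05 with group means at least 20 points apart, in Python 3.11.15 with numpy 2.4.6, pandas 2.3.3 and scipy 1.17.1. The procedure was also run on simulated data, with an outcome that is not reported here. Reads of a region share molecules, so counting error understates the spread, which the dispersion takes up.

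Named promoters, bodies and distal regions are the 10 with the largest difference in each direction, for promoters and bodies without overlap between the libraries. For gene lists up to 6 members were named by size of difference or for moving against their list. Further members and the longest distal regions were added after their values were seen. Members and lists were chosen with earlier results of these data known. Alternatives covered the coverage minimum, size of difference, test, dispersion, centring, window definitions, libraries in the fit and replicates. Sex chromosomes were not used here.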

Additional observations from a re-analysis of the deposited data

How the results depend on the processing

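No result of a called direction reversed under any alternative. Without a minimum difference, 407576 windows were lower and 1699 higher, 305274 and 749 distal windows, and 6556 and 106 promoters, and 79 bodies were higher. With at least 40 points, the counts lower and higher were 54074 and 58 for windows, 34587 and 32 for distal windows, 1273 and 5 for promoters, and 2383 and 0 for bodies. Centred on the median difference they were 51124 and 8672 for windows, 32623 and 3963 for distal windows and 1583 and 381 for bodies, and 53 promoters were higher. On that scale a window or body unmethylated in both groups can count as higher. With 20 observations 375263 windows and 289398 distal windows were lower, and the median difference was -20.7 points. With 100 observations the counts were 69611 and 205 for windows, 41944 and 104 for distal windows and 1063 and 6 for promoters, and the median was -21.6. Both minimums change which regions are tested. Beyond 20000 bp from a start, 96599 distal windows were lower and 135 higher. With whole genes, 5 bodies were higher. Leaving out 1 replicate gave 0 to 2490 promoters lower and 0 to 17 higher, the count of 0 arising without either EpiSC library.

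The replicate numbers did not pair the libraries: deviations of libraries with the same number correlated at -0.0056 over windows. A replicate block left 1745 promoters lower and 11 higher, with adjusted p of 0.0537 at Miip, 0.0993 at Nmur2 and 0.06 at Bhlhe22, and changed no count of windows or bodies by over 1.5 times. Of 58 regions named by size, 29 kept their call under every alternative run for them. No named promoter was among these, since promoters lost their calls without either EpiSC library. The named distal regions were not compared in windows with shifted borders. At 3.08 to 3.45 reads per CpG single sites were too shallow to compare, and regions poor in CpG were often left out. With 2 libraries a group, p-values rest on the spread shared across regions.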
